A study of Mus musculus with 37 samples.

Results

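The combined hormone response of wild-type luminal cells was the difference between 3 WT E2+P4 libraries and 3 WT placebo libraries. These 6 libraries, of 37 in 12 groups, were taken by the genotype and treatment in their titles, and their gene counts were compared for every gene with enough counts. RNA came from mature luminal cells sorted by FACS from the mammary glands of mice with unaltered Esr1, the gene of estrogen receptor alpha. The mice had reached 8 weeks of age, were ovariectomized and carried pellets for 8 days. The pellets held estradiol and progesterone together (WT E2+P4, 3 libraries), estradiol alone (WT E2, 3 libraries), progesterone alone (WT P4, 4 libraries) or no hormone (WT placebo, 3 libraries). Every group therefore lacked ovaries, the placebo mice included. The libraries of the series outside these groups were titled D542G or Y541S in place of WT. They entered the same fit, so they share in the estimate of spread behind the p-values of the main tests. The series design text names WT placebo as its reference and calls the samples biological replicates. No label says whether a library came from 1 animal or from a pool. The p-values cover spread among libraries within groups, and how much of it lies between animals is not known.

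Mature luminal cells line the mammary ducts and include the cells that express the receptors of estrogen and progesterone. Both receptors are ligand-activated transcription factors: the estrogen receptor induces the progesterone receptor gene, and progesterone acts through it. Hormone-sensing cells then release ligands such as amphiregulin and RANKL, which act on neighbouring cells, and in pregnancy the epithelium prepares to secrete milk. Proteins bound for secretion enter the endoplasmic reticulum (ER), are folded and glycosylated there, and leave in COPII-coated vesicles for the Golgi.

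The 3 WT E2+P4 libraries held 43.08, 36.96 and 52.24 M counts in total and the 3 WT placebo libraries 40.41, 37.31 and 37.02 M (M for 1e+06). The 10 genes with the most counts took 8.46% to 12.63% of the counts of WT E2+P4 libraries and 5.93% to 7.9% of those of WT placebo libraries. Luminal epithelial identity was checked with Epcam, an epithelial adhesion molecule, and with keratins. Epcam stood at 3130, 4130 and 3790 CPM (a gene's counts per 1e+06 counts of its library, scaled by TMM factors) in WT E2+P4 libraries and at 3450, 2630 and 3340 CPM in WT placebo libraries. Krt18, a keratin of luminal cells, was at 4460, 9230 and 7090 CPM in WT E2+P4 libraries and at 5810, 4790 and 6150 CPM in WT placebo libraries. The libraries of both groups overlapped for either gene, and neither difference passed the test (adjusted p = 0.276 for Epcam and 0.235 for Krt18). Without WT E2+P4 1, Krt18 was called higher (log2 difference 0.55, adjusted p = 0.0207).

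Combined hormone changed 4309 genes, 23.4% of those tested, with about as many higher as lower. Of 18426 genes, 2183 were called higher in WT E2+P4 (11.8%) and 2126 lower (11.5%) at an adjusted p under 0.05, by edgeR's quasi-likelihood test with Benjamini-Hochberg adjustment over all genes. The median log2 change over all genes tested was 0.01, and among genes called it was 1.21 for those higher and -1.17 for those lower. A change of at least 1 on the log2 scale was seen for 1266 of the genes called higher and 1256 of those called lower, and a change of at least 5 for 205 and 125. The libraries of both groups did not overlap for 4045 of the 4309 genes called. A call favours genes whose libraries separate, so this count is no separate support, and the share over all genes tested is not given here. In a principal component analysis of the 13 WT libraries, the first component, with 31.2% of the variance, placed WT E2+P4 libraries at 45.3 to 77.5 and WT E2 libraries at 72.5 to 116.2, opposite WT P4 libraries at -70.3 to -53.8 and WT placebo libraries at -79.3 to -65.7. The second component, with 16.4% of the variance, placed WT E2+P4 libraries at 62.6, 92.9 and 84.3 and WT placebo libraries at -21.4, -21.8 and -16.2. On the third component, with 11.7% of the variance, WT placebo 2 stood at 96 and WT P4 2 at 85, apart from the other WT libraries (at most 37.6).

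Among the largest rises were secreted proteins of host defence, proteases and their inhibitors and genes of collagen and its modification, and among the largest falls a urothelial-type plaque protein, an adrenergic receptor and a growth factor. The 15 rises and 15 falls of greatest size were taken from protein-coding genes whose log2 CPM averaged 2 or more over the 6 libraries and whose groups did not overlap. Klk1, a secreted kallikrein protease, had 514, 260 and 179 CPM in WT E2+P4 libraries and 0, 0.0766 and 0.0561 CPM in WT placebo libraries, a log2 change of 12.71 ± 1.93 (SE, adjusted p = 1.32e-05). Only 5 placebo counts lie behind that change, the kallikreins are a family of similar genes that can share reads, and 48.4% of the span of Klk1 lies within other genes. Spink8, a serine protease inhibitor of the Kazal type, was at 95.8, 62.7 and 58.1 CPM in WT E2+P4 libraries, against 0.392, 0.281 and 0.112 CPM in WT placebo libraries (log2 change 8.08 ± 1.23). Col6a1, a chain of collagen VI, stood at 736, 393 and 590 CPM in WT E2+P4 libraries and at 1.88, 1.58 and 2.89 CPM in WT placebo libraries (8.08 ± 1.03). Each of these genes was near 0 in every placebo library and at 58.1 CPM or more in every combined-hormone library. P4ha2, a subunit of the prolyl hydroxylase that modifies collagen chains, rose by 6.39 ± 0.50 on the log2 scale, and Fam20c, a kinase of secreted proteins, by 7.0 ± 0.58. Adam8, a membrane metalloprotease, rose by 6.75 ± 0.78, and Fmo1, a flavin monooxygenase, by 6.46 ± 0.72.

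**Figure D1:**
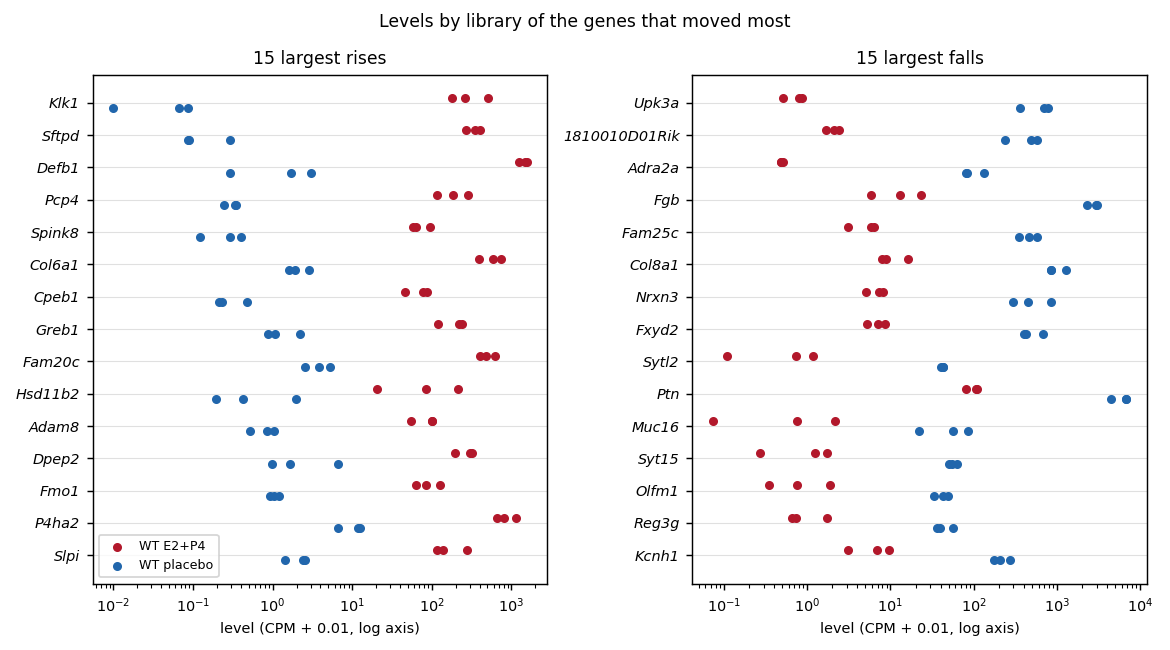
Level of each gene (CPM + 0.01, log axis) in every WT E2+P4 and WT placebo library for the 15 largest rises (left) and 15 largest falls (right), 1 point per library. The groups separate without overlap for each gene drawn, as the choice of genes required. Klk1 spans 179 to 514 CPM in WT E2+P4 libraries against 0 to 0.0766 CPM in WT placebo libraries.

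Upk3a, a uroplakin of the apical plaque of bladder epithelium, showed the largest fall, with 0.793, 0.864 and 0.499 CPM in WT E2+P4 libraries and 699, 361 and 779 CPM in WT placebo libraries (log2 change -9.74 ± 1.40, adjusted p = 5.79e-06). Ptn, the growth factor pleiotrophin, was at 106, 80.1 and 110 CPM in WT E2+P4 libraries and at 6720, 4420 and 6810 CPM in WT placebo libraries (-5.92 ± 0.67). Fgb, the beta chain of fibrinogen, stood at 5.79, 23.3 and 12.9 CPM in WT E2+P4 libraries, against 3000, 2940 and 2320 CPM in WT placebo libraries (-7.63 ± 1.30). The placebo libraries were the high ones for all of these genes, without overlap. Col8a1, a short-chain collagen, had 7.93, 8.77 and 16.3 CPM in WT E2+P4 libraries and 848, 844 and 1300 CPM in WT placebo libraries. Nrxn3 (neurexin 3), Fxyd2 (a regulator of the sodium pump) and Muc16 (a membrane mucin) fell by 6.28, 6.17 and 5.77 on the log2 scale.

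The largest rises and falls stood differently against the single hormones. Each of these comparisons uses the same WT E2+P4 libraries, so their results are not independent. Of the 15 largest rises, 13 were also called higher than in WT E2 and 15 higher than in WT P4. Slpi, a secreted leukocyte protease inhibitor, was the rise called lower than in WT E2. Of the 15 largest falls, 3 were called lower than in WT E2, 11 did not pass in that comparison, and 15 were called lower than in WT P4. Over all genes tested, 1881 (10.2%) were called higher and 1525 (8.28%) lower in WT E2+P4 than in WT E2, and 2220 (12%) higher and 2054 (11.1%) lower than in WT P4. The sum of calls against WT E2, 3406 genes, came to 2028 without WT E2+P4 3 and to 892 in a fit of the groups compared alone.

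The genes with the smallest p-values had changes with small errors. Anxa3, the calcium-binding annexin A3, had 409, 417 and 553 CPM in WT E2+P4 libraries and 58.4, 51.3 and 59.3 CPM in WT placebo libraries (log2 change 3.03 ± 0.17, adjusted p = 1.05e-12). Tcn2, the carrier of vitamin B12, was at 2460, 3400 and 4630 CPM in WT E2+P4 libraries, against 180, 148 and 194 CPM in WT placebo libraries (4.33 ± 0.27, adjusted p = 4.83e-12). The mean of Tcn2 was 366 ± 27.3 CPM in WT E2 (SD, n = 3) and 157 ± 12.3 CPM in WT P4 (SD, n = 4), both far under the combined treatment. Pknox2, a homeobox transcription factor, had 89.0, 120 and 151 CPM in WT E2+P4 libraries and 3.79, 1.10 and 2.25 CPM in WT placebo libraries (5.66 ± 0.39). Fkbp11, a prolyl isomerase of secretory cells, stood at 153, 156 and 190 CPM in WT E2+P4 libraries and at 16.1, 13.3 and 12.7 CPM in WT placebo libraries (3.57 ± 0.25).

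The gene with the highest count under combined hormone was Gpx3, the secreted glutathione peroxidase (chromosome 11, forward strand, between 54902453 and 54910377 in GRCm38). Gpx3 was at 44200, 75300 and 91200 CPM in WT E2+P4 libraries and at 1590, 1380 and 1720 CPM in WT placebo libraries. WT E2+P4 1 was the lowest of the treated libraries, yet every treated library lay above every placebo library. The log2 change was 5.49 ± 0.48 (adjusted p = 1.95e-09), and Gpx3 was also 2.63 higher than in WT E2 and 6.01 higher than in WT P4 on that scale. The tetraspanin gene Cd9 (2.17 ± 0.16) and the ferritin heavy chain gene Fth1 (2.45 ± 0.21) were further members of the 10 protein-coding genes with the most counts that rose.

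Genes of the secretory route rose together. Over 4 lists that cover entry into the ER, folding, ER-associated degradation and vesicle transport, 75 of 107 genes tested were called higher, 0 lower, and 32 did not pass, against 11.8% and 11.5% of all genes tested. Their median log2 change was 0.77. The libraries of both groups did not overlap for any of the 75 genes called, which the calls largely imply. Against WT E2, 64 of the 107 were called higher and 0 lower. Against WT P4, 78 were called higher and 0 lower.

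Most genes of entry and glycosylation rose. Of 33 genes tested for ER translocation and N-glycosylation, 28 were higher and 0 lower, with a median log2 change of 0.90. Spcs3, a subunit of the signal peptidase, was at 476, 324 and 592 CPM in WT E2+P4 libraries and at 109, 122 and 103 CPM in WT placebo libraries (log2 change 2.06 ± 0.16, adjusted p = 2.94e-10). Its partner in the same peptidase, Sec11a, rose by 1.38 ± 0.11. Ostc, of the oligosaccharyltransferase that attaches N-glycans, rose by 1.29 ± 0.11, and Ssr2, of the translocon-associated complex, by 1.46 ± 0.13.

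Folding enzymes and chaperones followed, with 18 of 22 genes tested higher, 0 lower and a median of 0.98. Hspa5 encodes BiP, the Hsp70 chaperone of the ER lumen and the gene most used to read out ER stress (chromosome 2, forward strand, between 34771970 and 34777547). Hspa5 had 2140, 2710 and 3250 CPM in WT E2+P4 libraries and 1090, 1270 and 1150 CPM in WT placebo libraries. All treated libraries lay above all placebo libraries, and the log2 change was 1.21 ± 0.18 (adjusted p = 8.6e-06). The mean of Hspa5 was 2930 ± 655 CPM in WT E2 (SD, n = 3), a difference of -0.12 that did not pass (adjusted p = 0.703), and 1880 ± 79.5 CPM in WT P4 (SD, n = 4), 0.52 under the combined treatment on the log2 scale. Sdf2l1, a partner of BiP, stood at 226, 252 and 342 CPM in WT E2+P4 libraries, against 68.7, 58.4 and 77.2 CPM in WT placebo libraries (2.01 ± 0.25), and it was 1.88 higher than in WT E2. Ero1l, which reoxidises protein disulfide isomerases, rose by 1.75 ± 0.17, and the proline isomerase gene Ppib by 0.93 ± 0.11. Manf, a secreted ER-resident factor, rose by 1.85 ± 0.16, though 92.3% of its span lies within other genes.

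The ER stress element, a promoter motif known to respond to the unfolded protein response factors, was searched as CCAAT, any 9 bases and CCACG, on both strands. The promoters were windows of 300 bases from RefSeq (GRCm38.p6), 250 before and 50 after the start site. The element was found in 7 of 18 promoters of the folding list (38.9%) and in 2 of 14 of the degradation list (14.3%). It was in 0 of 25 promoters of the translocation list and 0 of 29 of the vesicle list. A promoter was matched by symbol for 12672 of the 18426 genes tested, of which 19 (0.15%) held the element, and 37 of 27025 (0.137%) of all RefSeq promoters did. Among genes called higher it was in 8 of 1590 promoters (0.503%), and among genes called lower in 1 of 1583 (0.0632%). The called genes of the folding and degradation lists printed below are among those 8, so that share is not separate from the shares of the lists. CCAAT alone, which every such element contains, was found in 43% of the promoters of genes called higher and 42.8% of those of genes called lower. The stretches of 49 bases around the elements of the called genes of both lists are printed in the direction of the element. Its fixed bases are in capitals, and that they are shared follows from the search. Each name is followed by its place in GRCm38.p6 and its strand.
Hspa5, chr2:34772010-34772058, plus strand: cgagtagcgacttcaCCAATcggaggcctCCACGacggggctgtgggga
Hsp90b1, chr10:86705623-86705671, minus strand: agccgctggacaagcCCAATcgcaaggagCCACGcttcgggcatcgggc
Hsp90b1, chr10:86705518-86705566, plus strand: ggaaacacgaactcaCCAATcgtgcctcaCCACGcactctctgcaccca
Calr, chr8:84847060-84847108, plus strand: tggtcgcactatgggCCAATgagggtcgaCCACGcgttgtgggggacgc
Canx, chr11:50325785-50325833, minus strand: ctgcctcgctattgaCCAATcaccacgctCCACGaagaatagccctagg
Pdia6, chr12:17266476-17266524, plus strand: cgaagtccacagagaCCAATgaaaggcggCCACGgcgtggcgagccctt
Creld2, chr15:88819505-88819553, minus strand: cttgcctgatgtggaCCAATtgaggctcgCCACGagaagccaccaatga
Syvn1, chr19:6046517-6046565, plus strand: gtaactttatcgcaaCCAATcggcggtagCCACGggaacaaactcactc

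Hsp90b1 holds 2 of these elements. The genes behind the sequences are chaperones and lectins of the ER (Hspa5, Hsp90b1, Calr, Canx), a disulfide isomerase (Pdia6), the ER-resident Creld2 and the ubiquitin ligase of ER-associated degradation (Syvn1). Pdia6 stood at 1260, 1230 and 1840 CPM in WT E2+P4 libraries and at 595, 517 and 578 CPM in WT placebo libraries (log2 change 1.36 ± 0.17). The others rose by 1.27 (Syvn1), 1.0 (Calr), 0.96 (Canx), 0.84 (Creld2) and 0.77 (Hsp90b1). The element also stood in the promoters of Dnajc3 and Derl3, which were not called (log2 changes of 0.40, adjusted p = 0.0631, and 0.44, adjusted p = 0.651). A match of letters is a description of the window and was not tested as a binding site.

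**Figure D2:**
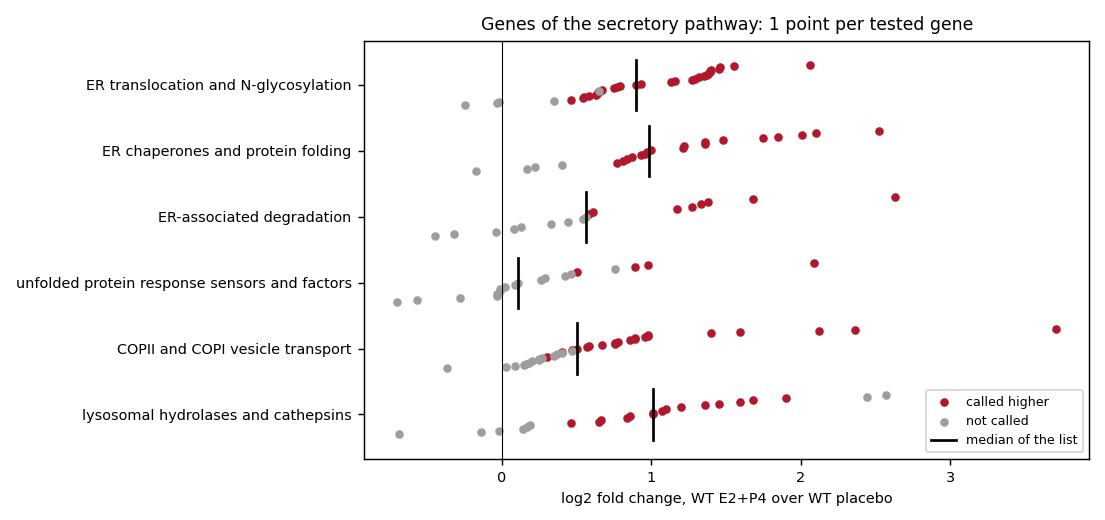
Log2 fold change, WT E2+P4 over WT placebo, of each tested gene in 6 lists of the secretory pathway, the unfolded protein response and the lysosome; points are genes, coloured by whether they were called higher, and black lines are list medians. Medians run up to 1.01 for lysosomal genes and lie at 0.11 for the unfolded protein response, and no gene drawn was called lower.

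Of 19 sensors and factors of the unfolded protein response, 4 were higher and 0 lower, with a median of 0.11, against 11.8% higher and 11.5% lower over all genes tested. Ern1, which encodes the sensor IRE1, was at 93.9, 117 and 185 CPM in WT E2+P4 libraries and at 44.5, 21.6 and 27.1 CPM in WT placebo libraries (log2 change 2.09 ± 0.26, adjusted p = 6.97e-07). Xbp1, whose mRNA IRE1 splices, had 482, 606 and 688 CPM in WT E2+P4 libraries and 628, 586 and 532 CPM in WT placebo libraries, an overlap with a log2 difference of 0.02 ± 0.20. Counts per gene do not separate spliced from unspliced Xbp1. Atf6b rose by 0.89 and Creb3 by 0.50; Atf4 rose by 0.98 but did not pass without WT placebo 1 or without WT placebo 3 (adjusted p up to 0.0621). In ER-associated degradation, 8 of 17 genes were higher and 0 lower. Edem1, a mannosidase-like protein that marks misfolded glycoproteins, stood at 420, 547 and 771 CPM in WT E2+P4 libraries and at 96.8, 85.5 and 98.3 CPM in WT placebo libraries (2.63 ± 0.22, adjusted p = 1.28e-09). Edem1 averaged 150 ± 23.6 CPM in WT E2 (SD, n = 3) and 109 ± 22.2 CPM in WT P4 (SD, n = 4). Selenos and Os9, both of the degradation complexes, rose by 1.68 ± 0.17 and 1.38 ± 0.14.

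Many vesicle carriers and lysosomal enzymes rose too. Of 35 COPII and COPI genes, 21 were higher and 0 lower, with a median of 0.50. Mcfd2, a cargo receptor cofactor between ER and Golgi, was at 315, 297 and 397 CPM in WT E2+P4 libraries and at 116, 99.4 and 119 CPM in WT placebo libraries (log2 change 1.59 ± 0.12, adjusted p = 8.74e-11). Kdelr3, a receptor that returns ER proteins, had 32.3, 50 and 51.4 CPM in WT E2+P4 libraries and 3.19, 2.86 and 4.18 CPM in WT placebo libraries (3.71 ± 0.36). Sec24d, a cargo adaptor of the COPII coat, rose by 2.36 ± 0.26. Of 23 lysosomal genes, 15 were higher and 0 lower, with a median of 1.01. Npc2, the cholesterol carrier of the lysosome lumen, stood at 597, 665 and 704 CPM in WT E2+P4 libraries and at 183, 166 and 179 CPM in WT placebo libraries (1.90 ± 0.14, adjusted p = 1.8e-10). The sialidase Neu1 rose by 1.68 ± 0.21. Ctsd, the protease cathepsin D, rose by 1.59 ± 0.23, with 55.7% of its span within other genes.

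Secreted proteins of innate defence were among the strongest rises, with 13 of 22 genes tested higher, 1 lower and a median of 2.65. Sftpd, the collectin surfactant protein D (chromosome 14, reverse strand, between 41172214 and 41185149), had 272, 345 and 399 CPM in WT E2+P4 libraries and 0.0783, 0.0766 and 0.281 CPM in WT placebo libraries (log2 change 11.19 ± 0.78, adjusted p = 4.56e-11). Sftpd was also 4.92 higher than in WT E2, where its mean was 11.2 ± 1.4 CPM (SD, n = 3), and 9.12 higher than in WT P4. Defb1, a beta-defensin, was at 1260, 1460 and 1550 CPM in WT E2+P4 libraries, against 1.70, 0.281 and 3.00 CPM in WT placebo libraries (9.75 ± 1.31), and averaged 28.1 ± 46.8 CPM in WT E2 (SD, n = 3). Both of these genes stood higher in each WT E2+P4 library than in any other WT library. Over the 22 genes of the list, 5 were higher and 7 lower than in WT E2 (median -0.81). Against WT P4, 13 were higher and 1 lower (median 2.22). C3, the central complement component, had 420, 164 and 184 CPM in WT E2+P4 libraries and 7.60, 7.02 and 14.6 CPM in WT placebo libraries (4.72 ± 0.47), but differed from WT E2 by -0.30, which did not pass (adjusted p = 0.666). Lcn2, which binds bacterial siderophores, stood at 1810, 3690 and 3170 CPM in WT E2+P4 libraries and at 453, 329 and 394 CPM in WT placebo libraries (2.88 ± 0.50). Slpi was at 276, 117 and 140 CPM in WT E2+P4 libraries and at 2.43, 2.55 and 1.43 CPM in WT placebo libraries (6.37), and 2.20 lower than in WT E2 on the log2 scale. Reg3g, an antibacterial lectin, was the member that fell, by 5.41 ± 1.29.

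Inhibitors and proteases of the cell surface and the secreted space also moved. Of 26 protease inhibitors of the serpin and WFDC families, 10 were higher and 1 lower; without WT E2+P4 1 the counts were 7 and 0. Serpine2, an inhibitor of thrombin and plasminogen activators, had 731, 811 and 987 CPM in WT E2+P4 libraries and 22.6, 33.9 and 29.9 CPM in WT placebo libraries (log2 change 4.87 ± 0.67), and it was 5.46 higher than in WT E2. Wfdc3 rose by 4.46 ± 0.54. Of 33 proteases and their regulators, 10 were higher and 3 lower, among the lower ones Timp2, an inhibitor of matrix metalloproteases (-1.56).

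Several milk genes rose, not all of them evenly among the treated libraries. Of 14 milk protein and lipid secretion genes tested, 6 were higher and 1 lower, with a median of 3.03, and the counts were 4 and 0 without WT E2+P4 1, without WT placebo 1 or without WT placebo 3. Plin2, which coats lipid droplets, was at 372, 415 and 514 CPM in WT E2+P4 libraries and at 93.8, 96.7 and 93.4 CPM in WT placebo libraries (log2 change 2.20 ± 0.32). Csn1s2b, a casein, held 1367 counts over the WT E2+P4 libraries and 3 over the WT placebo libraries, a ratio of counts of 456 with a 95% counting interval of 156 to 2210. Csn1s2a, another casein, was at 30.5, 3.68 and 9.78 CPM in WT E2+P4 libraries and at 0.0522, 0.536 and 0 CPM in WT placebo libraries, and did not pass without WT placebo 1 or 3 (adjusted p up to 0.052). Csn1s2a differed widely among the treated libraries, whereas Csn1s2b stood at 14.2, 9.92 and 11.7 CPM in them. Lpl, the lipoprotein lipase, rose by 4.54 ± 0.87. Against WT E2, 0 milk genes were higher and 5 lower. Of 17 luminal progenitor and alveolar markers, 7 were higher and 1 lower against placebo (median 1.03), while 0 were higher and 12 lower against WT E2 (median -1.64). Elf5, the alveolar transcription factor, had 34.1, 11.8 and 10.4 CPM in WT E2+P4 libraries and 12.2, 7.61 and 11.4 CPM in WT placebo libraries, which overlap (0.85 ± 0.44, adjusted p = 0.171), and it was 1.64 lower than in WT E2.

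The receptor genes themselves did not move alike. Esr1 (chromosome 10, forward strand, 4611593 to 5005614) was at 132, 232 and 343 CPM in WT E2+P4 libraries and at 654, 579 and 831 CPM in WT placebo libraries, a log2 change of -1.54 ± 0.34 (adjusted p = 0.00114). Its level was 3.28 higher than in WT E2, where the mean was 24.3 ± 14.8 CPM (SD, n = 3), and 1.19 under that of WT P4, where the mean was 537 ± 74.2 CPM (SD, n = 4). The combined treatment thus lay between WT E2 and the other WT groups. Pgr, the progesterone receptor gene, had 137, 264 and 307 CPM in WT E2+P4 libraries and 294, 108 and 150 CPM in WT placebo libraries, with overlap (0.36 ± 0.36, adjusted p = 0.524). Pgr was 1.82 higher than in WT E2 (67 ± 23.8 CPM, SD, n = 3) and 1.38 higher than in WT P4 (90.9 ± 26.5 CPM, SD, n = 4). Prlr, the prolactin receptor gene, was at 526, 879 and 1320 CPM in WT E2+P4 libraries and at 1990, 1330 and 1900 CPM in WT placebo libraries; its call (-0.94 ± 0.33) was lost in 7 of 12 alternatives.

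Several genes that mark the hormone-sensing state fell. Of 18 identity genes tested, 1 was higher and 10 lower, with a median of -0.84; the lower count was 7 without WT E2+P4 2 and 6 without WT placebo 1. Foxa1, the pioneer factor of the estrogen receptor, had 79.0, 65.3 and 211 CPM in WT E2+P4 libraries and 722, 509 and 865 CPM in WT placebo libraries (-2.56 ± 0.45). Gata3, a luminal lineage factor, stood at 83.0, 91.6 and 99.9 CPM in WT E2+P4 libraries and at 326, 239 and 344 CPM in WT placebo libraries (-1.73 ± 0.27). Cited1, a coregulator of hormone-sensing cells, was at 183, 392 and 387 CPM in WT E2+P4 libraries, against 992, 850 and 1920 CPM in WT placebo libraries (-1.97 ± 0.48). No treated library reached the lowest placebo library for any of these genes. Sox9 fell by 1.94 ± 0.26 and Tbx3 by 1.40 ± 0.31. Krt8, the keratin partner of Krt18, was the member called higher (0.69), a call lost in 4 of 12 alternatives. Against WT E2 the same list held 8 genes higher and 0 lower (median 1.13). Against WT P4 it held 2 higher and 10 lower (median -0.78).

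Targets of the receptors rose strongly in some cases and not in others. Of 24 estrogen receptor targets tested, 6 were higher and 3 lower (3 and 2 without WT placebo 1). Greb1, a cofactor of the estrogen receptor, was at 118, 222 and 236 CPM in WT E2+P4 libraries and at 2.22, 0.868 and 1.07 CPM in WT placebo libraries (log2 change 7.11 ± 0.64, adjusted p = 3.14e-09). Greb1 averaged 8.87 ± 6.03 CPM in WT E2 (SD, n = 3) and 4.25 ± 1.79 CPM in WT P4 (SD, n = 4), so it was 4.43 and 5.50 higher under the combined treatment than under either hormone alone. Myc, the growth-promoting transcription factor, had 346, 400 and 415 CPM in WT E2+P4 libraries and 152, 163 and 122 CPM in WT placebo libraries (1.41 ± 0.30). Ccnd1, which encodes cyclin D1, was called lower (-0.88 ± 0.30), and the call was lost in 6 of 12 alternatives.

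Of 18 targets of the progesterone and glucocorticoid receptors, 6 were higher and 2 lower. Fkbp5, an immunophilin of the receptor-chaperone complex, had 354, 271 and 334 CPM in WT E2+P4 libraries and 5.20, 14 and 6.54 CPM in WT placebo libraries (5.22 ± 0.56, adjusted p = 6.19e-08). Its means were 43.0 ± 9.84 CPM in WT E2 (SD, n = 3) and 25.6 ± 9.75 CPM in WT P4 (SD, n = 4). Hsd11b2, which inactivates glucocorticoids, was at 211, 20.2 and 83.4 CPM in WT E2+P4 libraries and at 0.183, 1.97 and 0.421 CPM in WT placebo libraries (6.92 ± 1.13). The treated libraries were spread widely for this gene and still lay apart from placebo. Sgk1, a kinase that acts on ion transport, rose by 2.20 ± 0.27, and Id2, an inhibitor of helix-loop-helix factors, fell by 2.04 ± 0.31. In the same promoter windows, the estrogen response element (GGTCA, any 3 bases, TGACC, both strands) was found in 0 genes called higher and 0 called lower, and in 0.0316% of those tested. The element of the progesterone and glucocorticoid receptors (G, any base, ACA, any 3 bases, TGT, any base, C) was in 0.566% of promoters of genes called higher and 0.569% of those called lower, against 0.45% of those tested.

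**Figure D3:**
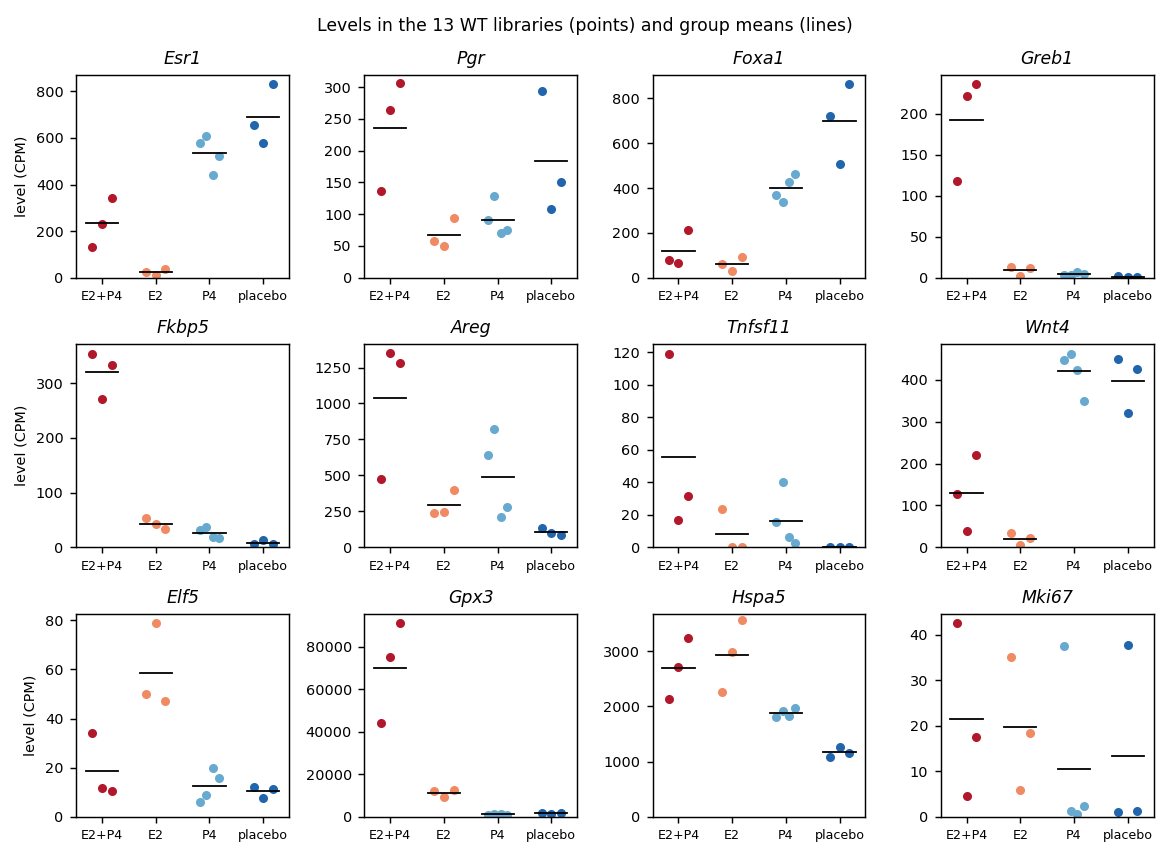
Level (CPM, linear axes that start at 0) of 12 genes in the 13 WT libraries, ordered WT E2+P4, WT E2, WT P4 and WT placebo; points are libraries and lines are group means. Esr1 under combined hormone (132 to 343 CPM) lies between WT E2 (9.73 to 39.4 CPM) and WT placebo (579 to 831 CPM), while Greb1 (118 to 236 CPM) and Fkbp5 (271 to 354 CPM) lie above all other WT libraries.

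Several paracrine ligands of hormone-sensing cells rose, with 8 of 17 genes tested higher, 1 lower, 8 not called and a median of 1.20. Areg, the EGF receptor ligand amphiregulin, had 476, 1350 and 1280 CPM in WT E2+P4 libraries and 133, 98.9 and 83.3 CPM in WT placebo libraries (log2 change 3.30 ± 0.50). Areg was 1.82 higher than in WT E2 (adjusted p = 0.00715), and the difference of 1.08 from WT P4 did not pass (adjusted p = 0.0667). Tnfsf11, which encodes RANKL, stood at 119, 16.6 and 31.3 CPM in WT E2+P4 libraries, against 0.104, 0.281 and 0.309 CPM in WT placebo libraries (7.90 ± 1.41). WT E2+P4 1 was the highest library for RANKL, and differences of 2.80 from WT E2 and 1.78 from WT P4 did not pass (adjusted p = 0.0542 and 0.157). Bmp3, a ligand of the BMP family, was at 226, 198 and 284 CPM in WT E2+P4 libraries and at 4.75, 1.61 and 3.90 CPM in WT placebo libraries (6.11 ± 0.70), and it was 2.81 higher than in WT E2 and 2.89 higher than in WT P4. Rspo1, an amplifier of Wnt signals, had 186, 12.8 and 29.6 CPM in WT E2+P4 libraries and 0.522, 0.690 and 1.94 CPM in WT placebo libraries (6.19 ± 1.28), with WT E2+P4 1 again highest. Calca, the calcitonin gene, was at 346, 27.9 and 33.1 CPM in WT E2+P4 libraries and at 16, 19.5 and 6.93 CPM in WT placebo libraries; its log2 change of 3.26 came to 1.11 without WT E2+P4 1, where it did not pass. Wnt4, a progesterone-responsive Wnt ligand, was called lower (-1.63 ± 0.56), a call lost in 7 of 12 alternatives.

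Transcription factors and nuclear receptors were more often lower than higher. Of 36 nuclear receptor genes, 2 were higher and 14 lower, with a median of -0.35, and of 29 luminal transcription factors 5 were higher and 13 lower, with a median of -0.77. Nr4a1, an orphan receptor induced by many stimuli, was at 115, 227 and 193 CPM in WT E2+P4 libraries and at 1900, 1480 and 2400 CPM in WT placebo libraries (log2 change -3.43 ± 0.45). Nr3c2, the mineralocorticoid receptor, had 5.43, 5.70 and 6.31 CPM in WT E2+P4 libraries and 98.5, 53.1 and 91.6 CPM in WT placebo libraries (-3.80 ± 0.44). Esrrg, an estrogen-related receptor without known hormone, stood at 2.47, 6.62 and 4.84 CPM in WT E2+P4 libraries, against 101, 76.0 and 96.3 CPM in WT placebo libraries (-4.30 ± 0.55). For each of these receptors the groups lay far apart. Rxra, the common partner of many nuclear receptors, fell by 1.57, and Runx1, a luminal transcription factor, by 1.58 ± 0.21. Of 27 coregulators, 2 were higher and 7 lower, and the lower count was 3 without WT E2+P4 2 or without WT placebo 1. Of 17 steroid-metabolising genes, 5 were higher and 2 lower, with the smallest p for Hsd17b12, a 17-beta-hydroxysteroid dehydrogenase that also acts in fatty acid elongation, with 399, 394 and 589 CPM in WT E2+P4 libraries and 131, 135 and 116 CPM in WT placebo libraries (1.86 ± 0.15, adjusted p = 4.55e-10).

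Stat5 signalling genes moved in both directions, with 5 of 17 higher and 5 lower. Stat5a, the transcription factor that prolactin activates, had 437, 557 and 732 CPM in WT E2+P4 libraries and 263, 123 and 175 CPM in WT placebo libraries (log2 change 1.62 ± 0.25), and it was 1.64 higher than in WT E2 and 1.70 higher than in WT P4. Socs2, a feedback inhibitor and Stat5 target, was at 118, 56.7 and 80.4 CPM in WT E2+P4 libraries and at 3.37, 3.81 and 2.89 CPM in WT placebo libraries (4.66 ± 0.50), and Cish, of the same family, rose by 1.86 ± 0.35. Socs3, which restrains Stat3 signals, stood at 202, 497 and 380 CPM in WT E2+P4 libraries and at 2650, 1990 and 2870 CPM in WT placebo libraries (-2.80 ± 0.32). Socs2 and Socs3 thus lay apart from placebo on opposite sides.

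Among genes of fibroblast growth factor signalling, 3 receptor genes fell. Of 19 tested, 1 was higher, 8 lower and 10 not called, with a median of -0.97. Fgfr2, the receptor that carries growth signals from stroma to mammary epithelium, was at 267, 382 and 381 CPM in WT E2+P4 libraries and at 2510, 2370 and 2850 CPM in WT placebo libraries (log2 change -2.91 ± 0.18, adjusted p = 5.34e-12), with 58.2% of its span within other genes. Fgfr2 averaged 267 ± 33.4 CPM in WT E2 (SD, n = 3), a difference of 0.36 that did not pass (adjusted p = 0.137), and 2610 ± 235 CPM in WT P4 (SD, n = 4). Fgfr3 and Fgfr1 fell by 1.98 and 1.32. Of 33 TGF-beta and BMP genes, 7 were higher and 8 lower. Inhbb, a subunit of activin B, had 27.9, 13.5 and 16.9 CPM in WT E2+P4 libraries and 359, 244 and 345 CPM in WT placebo libraries (-4.02 ± 0.32, adjusted p = 3.82e-10), and the type II receptor gene Tgfbr2 fell by 2.17 ± 0.22. Tgfb3, a ligand, rose by 2.21 ± 0.28. Of 21 Notch genes, 1 was higher and 4 lower (0 and 3 without WT E2+P4 2 or 3). The share called was 23.8%, near the 23.4% of all genes tested. Among the lower ones were the ligand Jag1 (-2.21) and the target genes Hes1 (-1.33) and Hey1 (-2.51). Of 29 Wnt genes, 4 were higher and 5 lower (3 and 2 without WT placebo 3), 31% called against 23.4% of all genes tested. Lgr4, the R-spondin receptor, was up by 2.07 and Rnf43, which removes Wnt receptors, down by 1.89.

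Some receptors for catecholamines rose and others fell. Of 20 G protein-coupled receptors of amines, adenosine and prostaglandins, 6 were higher and 3 lower. Adra1a, an alpha-1 receptor, had 73.1, 51.4 and 80.3 CPM in WT E2+P4 libraries and 0.574, 2.45 and 2.05 CPM in WT placebo libraries (log2 change 5.33 ± 0.79). Adra2a, an alpha-2 receptor, had 0.480, 0.480 and 0.499 CPM in WT E2+P4 libraries and 84.0, 81.6 and 133 CPM in WT placebo libraries (-7.67 ± 0.98), and the beta-1 receptor gene Adrb1 fell by 3.57 ± 0.47.

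Lipid synthesis genes rose more often than they fell. Of 24 genes of fatty acid and triglyceride synthesis, 12 were higher and 4 lower, with a median of 0.72. Acsl6, which activates long-chain fatty acids, had 154, 65.5 and 158 CPM in WT E2+P4 libraries and 0.0261, 0 and 0.112 CPM in WT placebo libraries (log2 change 11.37 ± 1.86), from 5 placebo counts. Acsl3, another enzyme of this family, was at 238, 314 and 378 CPM in WT E2+P4 libraries and at 72.4, 77.4 and 81.7 CPM in WT placebo libraries (2.01 ± 0.30). Fads3, a desaturase family member, rose by 2.22, Scd2, a stearoyl-CoA desaturase, by 2.12, and Gpat4, the acyltransferase that starts triglyceride synthesis, by 1.48. Of 21 fatty acid oxidation genes, 8 were higher and 3 lower, with Eci2 up by 1.56 and Acadl down by 1.19. Of 22 genes of cholesterol synthesis and uptake, 4 were higher and 3 lower (2 and 1 without WT E2+P4 1).

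Carriers of glucose and lactate rose, and the citric acid cycle list moved both ways. Of its 21 genes, 4 were higher and 3 lower, with a median of 0.09 (1 and 1 in a fit of the groups compared alone). Pcx, the pyruvate carboxylase, was at 489, 257 and 471 CPM in WT E2+P4 libraries and at 72.5, 61.2 and 88.2 CPM in WT placebo libraries (log2 change 2.46 ± 0.32). Of 22 glycolysis genes, 6 were higher and 1 lower, among them the glucose transporter gene Slc2a3 (6.28 ± 1.02) and the lactate carriers Slc16a3 (4.99 ± 0.60) and Slc16a1 (2.22 ± 0.31). Of 41 respiratory chain subunits of nuclear genes, 17 were higher and 0 lower (median 0.33), and 11 were higher without WT placebo 3 or in a fit of the 13 WT libraries alone. Of 12 mitochondrially encoded genes, 0 were called, with a median of 0.50. Ribosome biogenesis had 6 of 32 genes higher and 0 lower, 18.8% called against 23.4% of all genes tested. Over the alternatives 0 to 7 were higher, with 0 without WT placebo 3 and 1 without WT placebo 1, without WT E2+P4 1 or in a fit of the 13 WT libraries alone. Slc6a6, the taurine transporter, had 557, 598 and 822 CPM in WT E2+P4 libraries and 38.6, 77.9 and 30.8 CPM in WT placebo libraries (3.75 ± 0.38), while of 21 amino acid transporters 3 were higher and 5 lower.

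Iron storage genes rose, and oxidant defence genes moved in both directions. Of 23 zinc, iron and copper genes, 11 were higher and 1 lower, with a median of 0.82. Fth1 was at 3830, 7200 and 8200 CPM in WT E2+P4 libraries and at 1320, 1010 and 1190 CPM in WT placebo libraries (log2 change 2.45, adjusted p = 9.56e-10), and the light chain gene Ftl1 rose by 1.22 ± 0.14. Slc39a4, a zinc importer, rose by 2.51 ± 0.45. Of 29 glutathione and oxidant defence genes, 11 were higher and 8 lower. Gsta4, a glutathione transferase for lipid peroxidation products, stood at 422, 843 and 733 CPM in WT E2+P4 libraries and at 39.8, 28.2 and 58.2 CPM in WT placebo libraries (3.98 ± 0.45). Gstm2, a transferase of another class, had 3.43, 4.70 and 2.79 CPM in WT E2+P4 libraries, against 39.7, 38.2 and 38.3 CPM in WT placebo libraries (-3.41 ± 0.45).

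At the cell surface, some laminins and claudins rose while mucins and ion transporters were mixed. Of 28 integrin, laminin and collagen genes, 7 were higher and 0 lower, so 25% were called, near the 23.4% of all genes tested. Lamc1 was up by 2.48 ± 0.32 and Lamb3 by 2.51 ± 0.32. Of 29 junction and adhesion genes, 8 were higher and 4 lower, and the claudins Cldn3 and Cldn7 and occludin (Ocln) rose by 1.23, 1.07 and 1.03. Of 11 mucins and uroplakins, 3 were higher and 3 lower (1 and 2 without WT E2+P4 1). Muc13, a membrane mucin, was at 221, 1000 and 1050 CPM in WT E2+P4 libraries and at 28.7, 56.6 and 32.1 CPM in WT placebo libraries (log2 change 4.27 ± 0.92). Of 29 chloride, sodium and water transport genes, 5 were higher and 7 lower. Slc12a2, the sodium-potassium-chloride cotransporter, stood at 1340, 1290 and 3120 CPM in WT E2+P4 libraries and at 18600, 10900 and 15300 CPM in WT placebo libraries (-2.96 ± 0.49). Scnn1a, a subunit of the epithelial sodium channel, had 15.1, 8.16 and 15.8 CPM in WT E2+P4 libraries and 280, 211 and 312 CPM in WT placebo libraries (-4.36 ± 0.47).

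**Figure D4:**
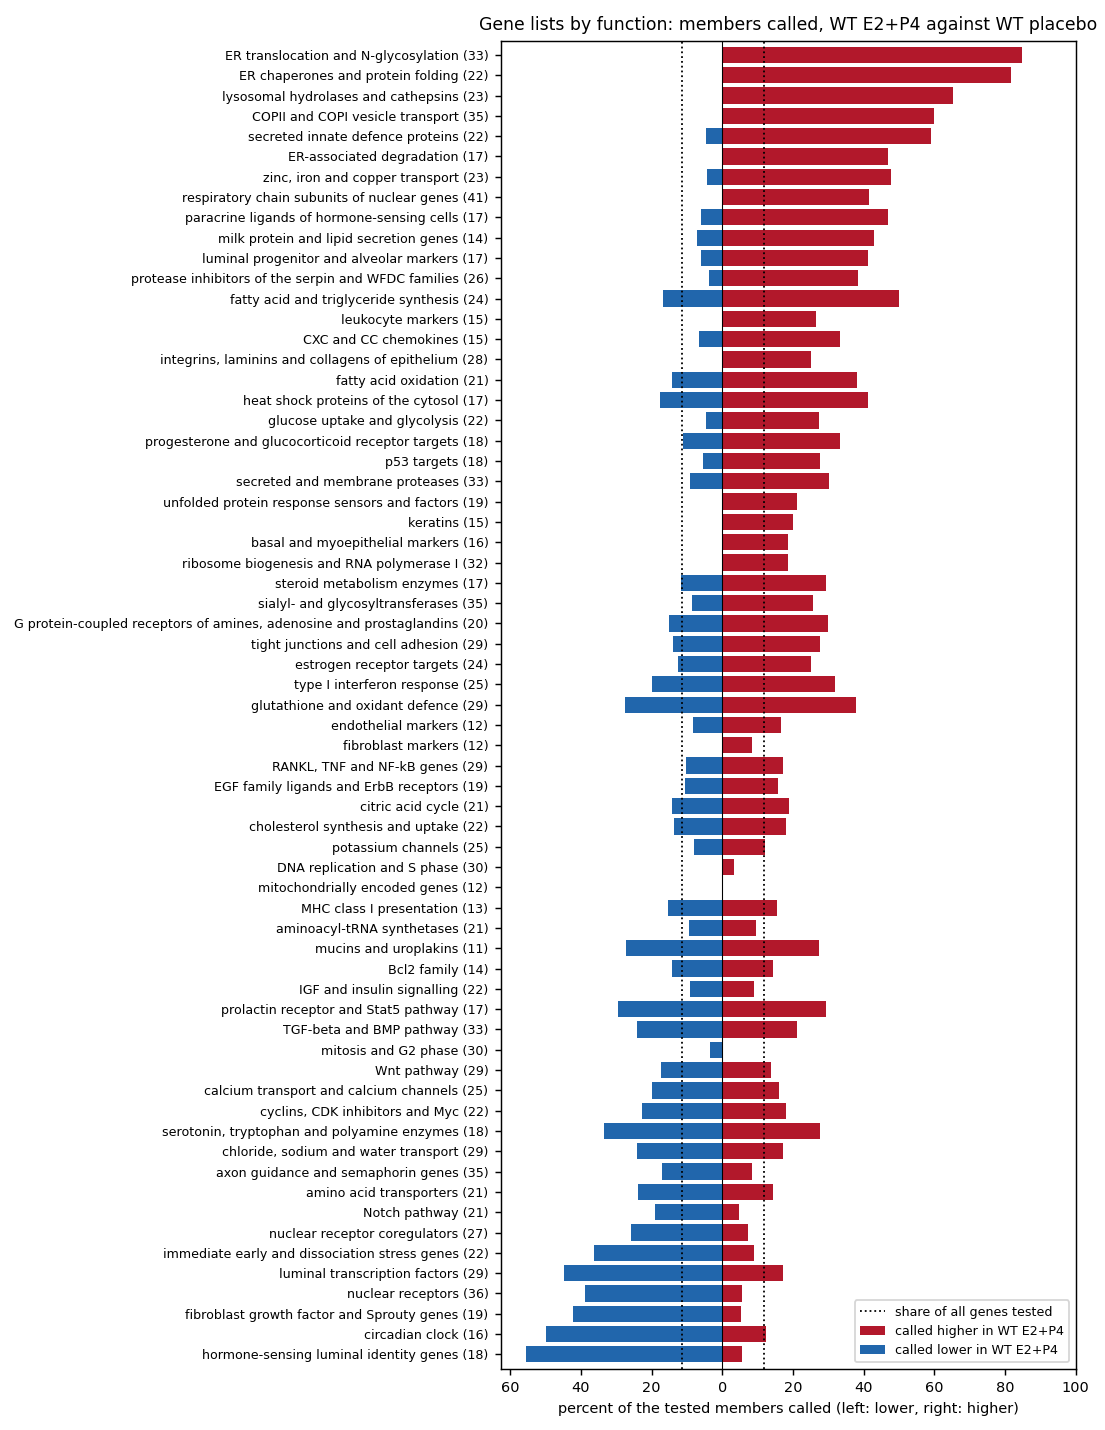
Percent of the tested members called higher (right) or lower (left) in WT E2+P4 than in WT placebo, for each list with at least 10 members tested, whose number stands in brackets; dotted lines mark 11.8% higher and 11.5% lower, the shares over all genes tested. ER translocation, with 28 of 33 members higher and 0 lower, stands at the top, and hormone-sensing identity genes, with 1 of 18 higher and 10 lower, at the bottom.

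Interferon-induced genes did not move one way. Of 25 tested, 8 were higher and 5 lower against placebo. Bst2, the antiviral tetherin, had 348, 414 and 508 CPM in WT E2+P4 libraries and 58.0, 37.3 and 56.5 CPM in WT placebo libraries (log2 change 3.07 ± 0.28), while the RNA sensor gene Ddx58 fell by 1.21. Against WT E2, 1 of the 25 was higher and 17 were lower, with a median of -1.59. Of 22 immediate early and dissociation stress genes, 2 were higher and 8 lower, with a median of -0.74. Junb stood at 906, 1400 and 1110 CPM in WT E2+P4 libraries and at 3200, 2980 and 3030 CPM in WT placebo libraries (-1.43 ± 0.24). Klf6 was 1 of the 2 that rose (1.15 ± 0.20).

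MHC class II genes, which antigen-presenting leukocytes express, rose in part. Of 8 class II genes tested, 5 were higher and 0 lower (3 without WT E2+P4 2). H2-Aa had 6.77, 32.9 and 5.46 CPM in WT E2+P4 libraries and 1.44, 1.89 and 1.60 CPM in WT placebo libraries (log2 change 3.19), and did not pass without WT E2+P4 2 (adjusted p = 0.105). H2-DMa, which helps load class II molecules, stood at 63.1, 82.1 and 99.3 CPM in WT E2+P4 libraries and at 28.9, 20 and 24.5 CPM in WT placebo libraries (1.74 ± 0.24, adjusted p = 4.5e-06), and was not highest in WT E2+P4 2. Of 15 leukocyte markers, 4 were higher and 0 lower, and 1 was higher without WT E2+P4 2. Their summed level was 15.5 to 92.9 CPM in WT E2+P4 libraries, highest in WT E2+P4 2, and 3.00 to 4.52 CPM in WT placebo libraries. Of the 15, 14 had a log2 change above 0 (median 3.44), and the share called was 26.7%, against 23.4% of all genes tested. Lyz2 was at 8.43, 49.3 and 3.92 CPM in WT E2+P4 libraries and at 0.653, 1.69 and 1.15 CPM in WT placebo libraries. The Lyz2 call was lost in 3 of 12 alternatives. The T cell gene Cd3e was at 0 in all WT E2+P4 libraries and at 0.0522, 0 and 0 CPM in WT placebo libraries. Class I genes are expressed by most cells, and H2-D1, with 4640, 6910 and 8130 CPM in WT E2+P4 libraries and 3450, 2590 and 3590 CPM in WT placebo libraries, rose by 1.03 ± 0.19. The part of leukocyte RNA in the class II results was not tested.

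Markers of other cells were low but not the same in all libraries. The summed basal markers ran from 344 to 430 CPM in WT E2+P4 libraries and from 160 to 1090 CPM in WT placebo libraries, with WT placebo 2 highest. Of these 16 markers, 3 were called higher (1 without WT E2+P4 2) and 0 lower, 18.8% called against 23.4% of all genes tested. Fibroblast markers summed to 83.4 to 371 CPM in WT E2+P4 libraries and to 42.7 to 334 CPM in WT placebo libraries, and 1 of 12 was higher. Endothelial markers summed to 326 to 584 CPM in WT E2+P4 libraries and to 111 to 124 CPM in WT placebo libraries. Vwf, the von Willebrand factor gene, made up most of that sum in WT E2+P4 libraries, with 289, 388 and 443 CPM in WT E2+P4 libraries and 32.5, 20.7 and 34.0 CPM in WT placebo libraries (log2 change 3.68 ± 0.46). Of the 12 endothelial markers, 10 had a log2 change above 0 (median 1.26), 2 were called higher and 1 lower. The share called was 25%, against 23.4% of all genes tested. Cldn5 was the other called higher (2.16), with 2.21, 28.2 and 3.04 CPM in WT E2+P4 libraries, a call lost in 5 of 12 alternatives. Eng was called lower (-1.39), a call lost in 4 of 12 alternatives. The 5 adipocyte markers held 1 gene called higher and the 4 erythroid markers 0. In bulk RNA, fewer cells of a type and less RNA per cell cannot be told apart.

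The count of cell cycle genes called turned on WT placebo 2. The summed level of 30 mitosis and G2 genes was 1150, 246 and 399 CPM in WT E2+P4 libraries and 104, 979 and 134 CPM in WT placebo libraries. All treated libraries lay above WT placebo 1 and 3, and WT placebo 2 stood apart from its group. Mki67, the proliferation marker, had 42.6, 4.51 and 17.6 CPM in WT E2+P4 libraries and 1.04, 37.7 and 1.21 CPM in WT placebo libraries, with overlap (log2 change 0.70, adjusted p = 0.697). Of the 30 mitosis genes, 0 were called higher and 1 lower, and without WT placebo 2 the counts were 24 and 0. The same omission gave Mki67 a log2 change of 4.26 (adjusted p = 0.0164). Of 30 replication genes, 1 was higher and 0 lower, and without WT placebo 2 the counts were 16 and 0. WT placebo 2 also held the highest basal sum, and its part in these counts beyond leaving it out was not tested.

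**Figure D5:**
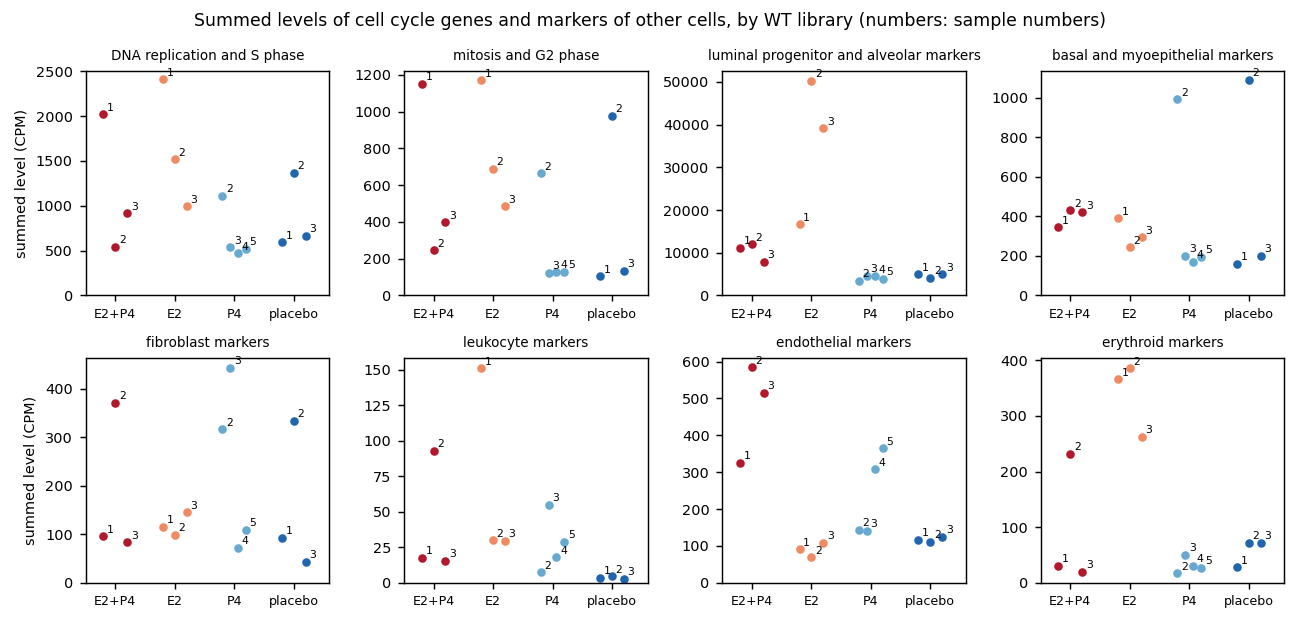
Summed level (CPM, linear axes that start at 0) of cell cycle genes, progenitor markers and markers of other cell types in the 13 WT libraries, ordered WT E2+P4, WT E2, WT P4 and WT placebo; points are libraries and their labels are sample numbers. The mitosis sum reaches 1150 CPM in WT E2+P4 1 and 979 CPM in WT placebo 2, and the leukocyte sum is 15.5 to 92.9 CPM in WT E2+P4 against 3.00 to 4.52 CPM in WT placebo.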

How the data were processed

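The authors deposited 1 table per library with whole-number counts per gene, and RPKM values that were not used here. The submitters' processing notes name GRCm38. The aligner, the counter and the use of strand are not given in the sources used here, so reads of overlapping genes cannot be told apart. Identifiers were matched to GENCODE M21 for 52489 of 52636 genes. Groups came from the titles.

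The test was edgeR 4.0.16 under R 4.3.3, with 37 libraries (WT, D542G and Y541S) in 1 robust quasi-likelihood fit, 1 coefficient per group, filterByExpr, TMM scaling and Benjamini-Hochberg adjustment, called at an adjusted p under 0.05. A group of 3 libraries limits precision. Counts were simulated with 100 genes changed 2-fold and 100 changed 4-fold among 18426. The fit recovered 42% of the former and 75% of the latter, with 2 false calls. Far more genes were called in the data, so recovery there can differ. Errors of log2 changes are SE, the size of the change over the root of its F. Levels are CPM scaled by TMM factors. The counting interval covers counting error only, at 95%.

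Alternatives were DESeq2 1.42.0, its size factors, no low-count filter, fewer libraries, a replicate block and leaving out each library. Named genes were the 15 largest rises and falls, the 10 smallest p, up to 4 called members per list, a fixed panel, marker genes, and the 10 genes with the most counts. Genes whose promoters held the ER stress element were named for it. The members, the 68 lists (1386 genes tested of 1481) and the panel were chosen with earlier results of these data known. Some genes that the rule names are not reported here.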

Additional observations from a re-analysis of the deposited data

Results flagged for a closer look

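A sample that stood far from the others was found in the WT P4 group, the only group of 4 libraries, for 10 of the values used here. Chance alone gives such a gap in about 1 in 20 groups. The number of values screened is not given here, and several of the 10 come from the same library, so they cannot be called many or few. WT P4 2 was high for Mki67, at 37.6 CPM against 0.672 to 2.39 CPM in the other WT P4 libraries. The same library was high for the summed mitosis and G2 genes (664 CPM, others 122 to 130 CPM), the summed replication and S phase genes (1110 CPM, others 470 to 537 CPM) and the summed basal and myoepithelial markers (991 CPM, others 171 to 201 CPM). WT P4 2 was also high for Spink8 (0.46 CPM, others 0 to 0.032 CPM) and Hsd11b2 (1.79 CPM, others 0.891 to 1.03 CPM), and low for Myc (193 CPM, others 248 to 256 CPM). WT P4 3 was high for Sftpd (1.43 CPM, others 0.276 to 0.416 CPM) and Dpep2 (5.3 CPM, others 3.82 to 4.05 CPM; the span of Dpep2 lies wholly within other genes). WT P4 4 was high for Cited1, at 1590 CPM against 1100 to 1180 CPM. These values enter the differences between WT E2+P4 and WT P4 directly. The WT P4 libraries also enter the shared estimate of spread behind the tests against WT placebo.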

How the results depend on the processing

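The count of genes called against WT placebo, 4309, was 4348 with DESeq2 size factors, 3654 with no low-count filter, 3360 with only WT libraries, 3612 with only the groups compared and 5003 by DESeq2, and 3233 to 3916 with 1 library left out. Against WT E2, 3406 genes were called, 892 (653 higher, 239 lower) with only the groups compared, and 2028 to 3715 with 1 library left out, the lowest without WT E2+P4 3. Against WT P4 the count with 1 library left out was 3217 to 4228. The numbers in the titles did not pair WT E2+P4 with WT placebo libraries: correlations of the deviations of same-numbered libraries were -0.32, -0.18 and 0.14. Pairing by number was not checked for the other groups. WT placebo 2 and WT P4 2 share a number and stood together on the third component (96 and 85), and a batch by number was not tested. With the replicate block, 4441 genes were called against WT placebo, 3536 against WT E2 and 3205 against WT P4. Of 273 named genes called, 234 kept the call under all 12 alternatives and 39 lost it in at least 1. A reversal, a change of sign with a call in either fit, was seen for 0 of the 287 named. Changes of sign without a call do not count there, as for Mki67 (log2 change -0.26 to 4.26 over the alternatives) and Dcn (-1.36 to 0.44). Of 68 lists, 44 kept a count within 1.5 times of that reported and 24 moved. The causes were not tested. Depth limits genes at a few placebo counts, such as Klk1, Acsl6 and Csn1s2b, whose fold changes carry wide errors.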

Other observations

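Several clock genes fell under combined hormone. Of 16 circadian genes tested, 2 were higher, 8 lower and 6 not called against WT placebo, with a median log2 change of -0.83. Dbp, an output factor of the clock, had 3.31, 3.30 and 2.82 CPM in WT E2+P4 libraries and 45.2, 28.7 and 57.3 CPM in WT placebo libraries (-3.80 ± 0.51, adjusted p = 2.44e-06). Tef, of the same family, stood at 40.7, 67.8 and 62.6 CPM in WT E2+P4 libraries and at 182, 167 and 243 CPM in WT placebo libraries (-1.79 ± 0.28), and Per1, a core repressor, fell by 1.24 ± 0.21. The treated libraries lay under the placebo libraries for all of these genes.

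Serotonin genes moved in both directions, and axon guidance genes were called about as often as all genes tested. Of 18 serotonin, tryptophan and polyamine genes, 5 were higher and 6 lower, with a median of 0.02. Tph1, the rate-limiting enzyme of peripheral serotonin synthesis, was at 301, 286 and 497 CPM in WT E2+P4 libraries and at 7.36, 4.39 and 6.68 CPM in WT placebo libraries (5.88 ± 0.77), while Maoa, which degrades serotonin, had 31.2, 40.7 and 30.9 CPM in WT E2+P4 libraries and 130, 80.2 and 112 CPM in WT placebo libraries (-1.65 ± 0.21). Tph1 averaged 826 ± 456 CPM in WT E2 (SD, n = 3), and the difference of -1.19 from it did not pass (adjusted p = 0.192). Sema4c, a membrane semaphorin, stood at 46.7, 17.6 and 24.6 CPM in WT E2+P4 libraries and at 374, 314 and 394 CPM in WT placebo libraries (-3.61 ± 0.31, adjusted p = 1.77e-09), and Robo1, a Slit receptor, fell by 3.59 ± 0.45. Sema3c, a secreted semaphorin, rose by 3.53. Over the list of 35 such genes, 3 were higher and 6 lower, so 25.7% were called, near the 23.4% of all genes tested. Among calcium genes, Atp2c2, a Golgi calcium pump, had 4.42, 13.1 and 15.8 CPM in WT E2+P4 libraries and 190, 280 and 150 CPM in WT placebo libraries (-4.22 ± 0.53), and the ER pump gene Atp2a3 rose by 3.49; of 25 tested, 4 were higher and 5 lower.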
